A study of Homo sapiens with 16 samples.

Results

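The genes described here are 10 that set how mitochondria use oxygen and how cells remove mitochondria: the pyruvate dehydrogenase kinases PDK1, PDK2 and PDK3, the respiratory chain genes NDUFA4L2, NDUFA4, COX4I1, COX4I2 and HIGD1A, and the mitophagy receptors BNIP3 and BNIP3L. They were chosen by name, and all 10 were found among the 63187 genes of the deposited tables and passed the filter on low counts, which left 19530 genes. RNA-seq was made from SK-N-BE(2), a human neuroblastoma line, in 4 groups of 4 libraries. WT cells were labelled wild type. The other groups were transfected with a form of HIF-2α, the product of EPAS1: the full-length protein (FL), or the forms that the design writes ΔN-CTAD (labelled NCTAD) and Δc-IDR (labelled cIDR). The labels give no deleted residues, vector, time after transfection or empty-vector control, so transfection and HIF-2α cannot be told apart in a comparison with WT. All cells grew at 21% oxygen with 10% serum. Each group has replicates 1 to 4, and the labels give the same number as a batch, so every batch holds 1 library of each group. The labels do not say that replicates were separate cultures, and p-values then measure only the spread between these samples.

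Hypoxia-inducible factors switch on genes that lower the oxygen demand of mitochondria. PDK1, PDK2 and PDK3 phosphorylate and inhibit the pyruvate dehydrogenase complex, which keeps pyruvate out of the citric acid cycle. NDUFA4L2 is the hypoxia-inducible paralogue of NDUFA4, a subunit of cytochrome c oxidase, and COX4I2 is the alternative form of COX4I1, the subunit 4 of the same enzyme. HIGD1A is a small inner membrane protein that binds cytochrome c oxidase. BNIP3 and BNIP3L, also called NIX, sit on the outer membrane and recruit the autophagy machinery to mitochondria.

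Libraries held 38.6 to 56.1 M (mega) counts, and levels are counts per 1 M counts (CPM) on TMM-scaled library sizes. EPAS1, which checks the labels, was 13.0, 28.1, 17.3 and 14.3 CPM in WT batches 1 to 4. It was 1691 to 3580 CPM in FL, 1320 to 4228 CPM in NCTAD and 2189 to 5852 CPM in cIDR, where reads of the native gene and of the transfected form count together. Of the neuroblastoma markers, MYCN was 2594 to 3411 CPM over the 16 libraries, HAND2 542 to 850 CPM, and DBH 293 to 725.0 CPM. TH, the enzyme that makes the precursor of dopamine, was low, at 0.856 to 10.2 CPM. The 4 libraries of batch 2 stood apart from the other 12 in several of the genes described here, and the main results are given with and without them.

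Stretches upstream of PDK1, NDUFA4L2 and BNIP3 are shown because HIF binds the letters ACGTG or GCGTG. Sequences are from RefSeq (GRCh38.p14), 5′ to 3′ on the gene's strand, with ACGTG or GCGTG on either strand in capitals. RefSeq lists NDUFA4L2 as COXFA4L2. The PDK1 stretch is the 30 bases before a start site inside the gene, and the BNIP3 stretch leaves out bases that GENCODE 29 gives to a transcript.
PDK1, chr2:172556060-172556089, plus strand: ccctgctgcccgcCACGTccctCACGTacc
NDUFA4L2, chr12:57240763-57241012, minus strand: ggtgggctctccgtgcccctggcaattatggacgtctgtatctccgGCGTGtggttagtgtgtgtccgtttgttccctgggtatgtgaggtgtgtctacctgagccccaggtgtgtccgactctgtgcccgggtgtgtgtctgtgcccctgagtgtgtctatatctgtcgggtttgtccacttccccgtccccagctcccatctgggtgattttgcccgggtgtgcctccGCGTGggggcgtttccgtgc
BNIP3, chr10:131982014-131982173, minus strand: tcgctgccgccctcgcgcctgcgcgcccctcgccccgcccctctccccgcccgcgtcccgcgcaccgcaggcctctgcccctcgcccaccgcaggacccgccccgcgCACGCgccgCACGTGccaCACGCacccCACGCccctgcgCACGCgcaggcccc
PDK1 carried 2 copies of ACGTG, with the first base 17 and 8 bases before the start, and NDUFA4L2 carried GCGTG 204 and 20 bases before it. The window before the other start site of PDK1, at the start of the gene, held neither. BNIP3 held 4 copies of GCGTG around CACGTG, which reads as ACGTG on both strands. Of the 10 genes, 8 had RefSeq windows of 250 bases before a start, all but COX4I2 and BNIP3L. These 8 genes have 12 windows, of which 5 held ACGTG and 6 held GCGTG. Windows of PDK2, PDK3 and HIGD1A also held both, and NDUFA4 and COX4I1 held neither. PDK2 and HIGD1A were not called in any comparison of groups, and differed by 0.02 and 0.06 (log2) in the batch 2 contrast given below. Of 35116 such windows over all genes, 18.5% held ACGTG, 32.2% held GCGTG and 43.2% held either, so a match describes the letters only.

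NDUFA4L2 (chr12:57234903-57240762) had the widest range of the 10 genes as a ratio of highest to lowest. In batches 1 to 4 it was 0.104, 63.4, 0.531 and 0.549 CPM in WT and 0.849, 75.8, 0.860 and 1.02 CPM in FL. It was 1.81, 75.5, 1.96 and 1.59 CPM in NCTAD and 16.8, 142.7, 9.23 and 8.02 CPM in cIDR. Outside batch 2 the groups stood in the order WT, FL, NCTAD and cIDR, from low to high, with no overlap, while in batch 2 FL and NCTAD were level and even the WT library was above every cIDR library of the other batches. The WT libraries of batches 1, 3 and 4 rest on 5, 22 and 25 counts, so their levels are imprecise, whereas the cIDR libraries of these batches hold 355 to 621 counts. Only 4 of the 19530 tested genes (0.0205%) had this order without overlap in batches 1, 3 and 4. They were NDUFA4L2, the adenylate kinase gene AK4, the hypoxia-inducible gene NDRG1 and a gene without a symbol, a set chosen after the values were seen.

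**Figure D1:**
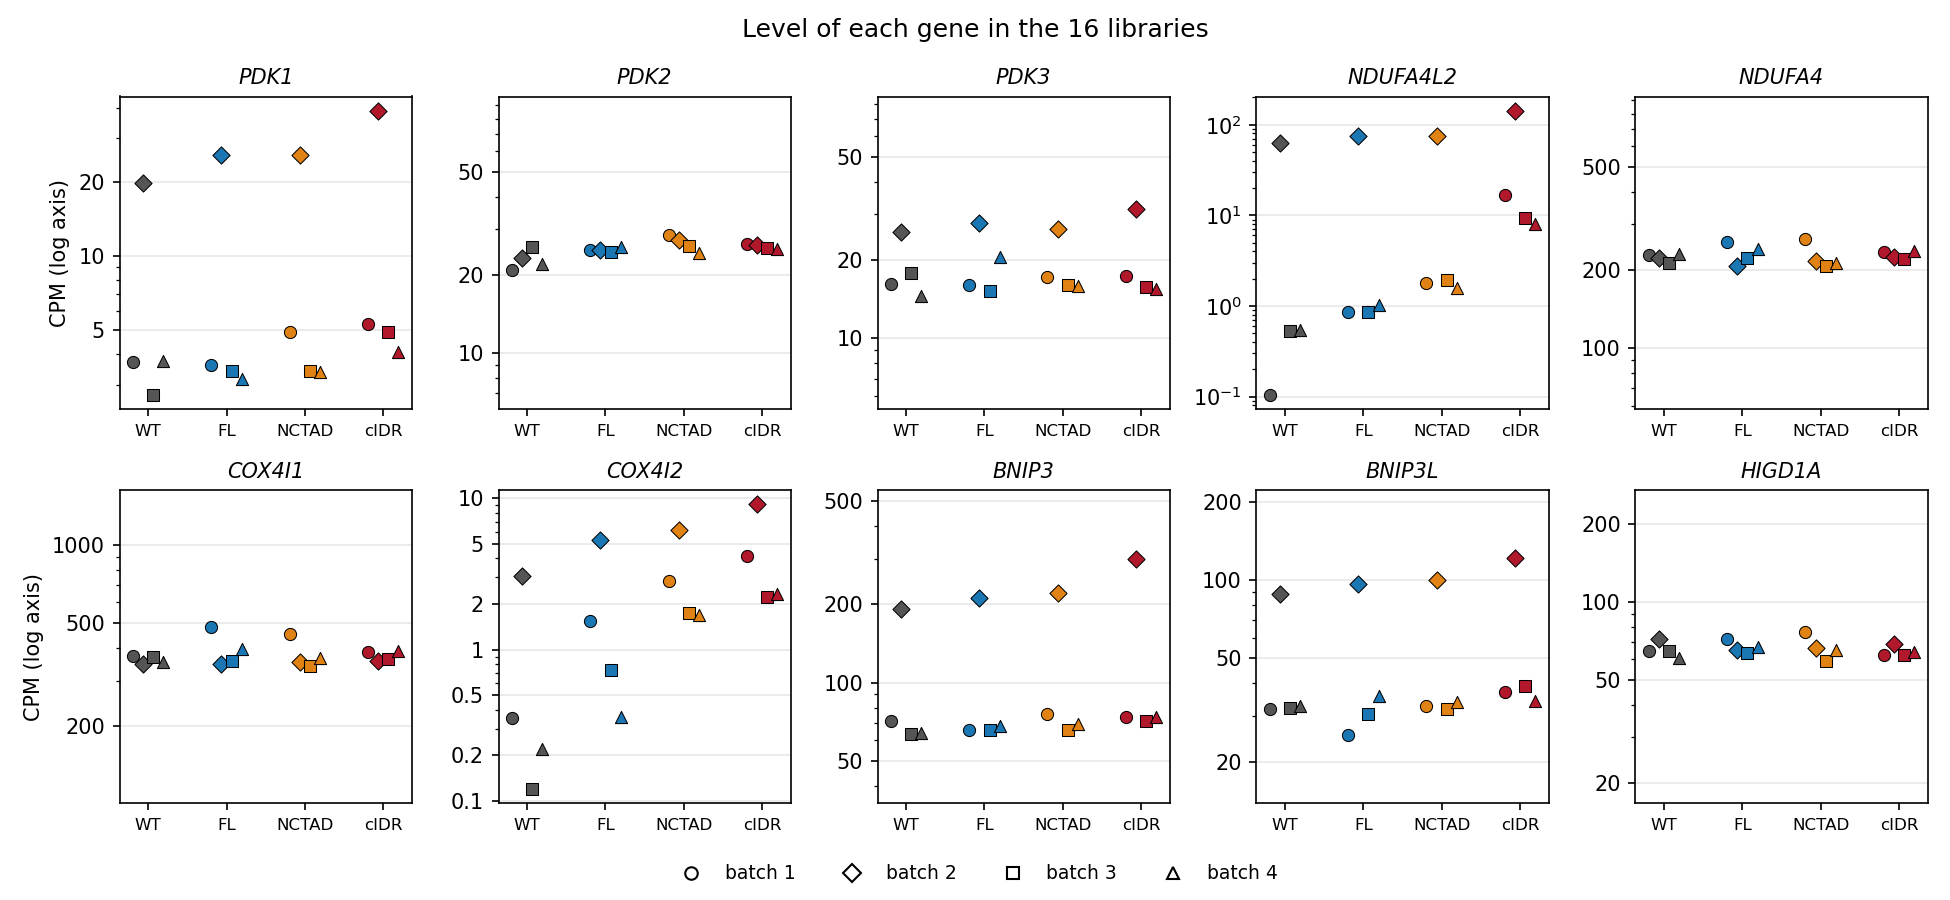
Level of each of the 10 genes in CPM (log axis, a separate scale for each gene) in the 16 libraries by group, with the marker giving the batch. NDUFA4L2 outside batch 2 climbs from 0.104 to 0.549 CPM in WT to 8.02 to 16.8 CPM in cIDR, and the batch 2 diamonds of PDK1, NDUFA4L2, BNIP3 and BNIP3L lie above all other libraries.

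Set against the WT library of its own batch, cIDR held 161, 2.25, 17.4 and 14.6 times the NDUFA4L2 of WT in batches 1 to 4. On the log2 CPM scale (prior count 2) the difference was 3.95 ± 2.32 for cIDR, 1.80 ± 1.41 for NCTAD and 1.09 ± 1.04 for FL (mean ± SD, n = 4 batches), higher in 4 of 4 batches each. cIDR also exceeded FL by 2.86 ± 1.41 and NCTAD by 2.16 ± 0.93, in 4 of 4 batches each. In the edgeR quasi-likelihood fit with group alone, NDUFA4L2 differed between cIDR and WT by 1.45 ± 1.82 (log2 ± SE, adjusted p = 1), less than the spread within groups. With the batch as a replicate block it was 3.13 ± 0.51 (edgeR, adjusted p = 0.0095), and with batch 2 left out as well 4.82 ± 0.45 (adjusted p = 0.00069). The blocked values for NCTAD and FL were 0.84 ± 0.52 and 0.43 ± 0.52, with adjusted p = 0.95 and 0.93. Without batch 2 they were larger, at 2.17 for NCTAD (adjusted p = 0.13) and 1.19 for FL (adjusted p = 0.89), and did not pass either. cIDR against FL was 2.70 ± 0.49 in the blocked fit (adjusted p = 0.18) and 3.63 ± 0.41 without batch 2 (adjusted p = 0.012). cIDR against NCTAD did not pass either way, at 2.29 ± 0.48 (adjusted p = 0.47) and 2.66 (adjusted p = 0.16). With only the cIDR library of batch 2 left out, both passed in the blocked fit, with adjusted p = 0.0035 against FL and 0.015 against NCTAD.

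COX4I2 (chr20:31637912-31645006) was also higher with every form of HIF-2α in every batch. It was 0.355, 3.05, 0.121 and 0.220 CPM in WT batches 1 to 4 and 1.55, 5.27, 0.731 and 0.359 CPM in FL. NCTAD libraries held 2.83, 6.12, 1.76 and 1.70 CPM, and cIDR libraries held 4.17, 9.08, 2.22 and 2.33 CPM. The batch 2 library was the highest of each group, and outside batch 2 every transfected library was above every WT library. For FL the gap was slight, with 18 counts (0.359 CPM) in batch 4 against 17 counts (0.355 CPM) in WT batch 1. The lowest WT library had 5 counts and the highest 164. Within batches, the FL library exceeded WT in COX4I2 by 1.41 ± 0.83, the NCTAD library by 2.51 ± 1.06 and the cIDR library by 2.99 ± 0.98 (log2 CPM, mean ± SD, n = 4). cIDR exceeded NCTAD by 0.473 ± 0.109, in 4 of 4 batches each.

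With group alone, COX4I2 differed from WT by 1.05 ± 0.92 (log2 ± SE) with FL, by 1.70 ± 0.92 with NCTAD and by 2.22 ± 0.93 with cIDR, and none passed the edgeR test. In the blocked edgeR fit COX4I2 rose by 2.29 ± 0.37 in NCTAD (adjusted p = 0.0089) and by 2.76 ± 0.37 in cIDR (adjusted p = 0.0016), and the FL value of 1.24 ± 0.37 did not pass (adjusted p = 0.62, and 1.80 with adjusted p = 0.19 without batch 2). The differences between forms did not pass in this fit, with 1.52 ± 0.34 for cIDR against FL (adjusted p = 0.35). Both rises were larger without batch 2, at 3.18 ± 0.33 (adjusted p = 0.0011) and 3.64 ± 0.33 (adjusted p = 0.0006). The call in NCTAD was lost when the WT library of batch 1 was left out (adjusted p = 0.069).

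The paralogues that NDUFA4L2 and COX4I2 can replace were abundant in every library and showed no such order. NDUFA4 was 206.5 to 262.6 CPM and COX4I1 341.2 to 482.4 CPM over the 16 libraries, with all 4 groups overlapping. On the per-length TPM scale, NDUFA4L2 made up 0.0396, 22.2, 0.312 and 0.246% of the NDUFA4L2 and NDUFA4 total in WT batches 1 to 4. In FL the shares were 0.365, 28.4, 0.403 and 0.491%. In NCTAD they were 0.796, 27.7, 1.07 and 0.867%, and in cIDR 8.90, 41.8, 4.61 and 3.71%. The pair was thus almost all NDUFA4 in WT, except in batch 2. Over batches 1, 3 and 4 the mean share was 0.199 ± 0.142% in WT and 5.74 ± 2.77% in cIDR (SD, n = 3). For scale, the 5 counts of the WT library of batch 1 were 0.0456% of 10969 counts for the pair (95% Wilson interval 0.0195 to 0.107%, counting error only).

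COX4I2 stayed a small part of its pair in all 16 libraries. Its TPM share of COX4I2 and COX4I1 was 0.127, 1.05, 0.0388 and 0.0740% in WT batches 1 to 4 and 0.399, 2.27, 0.305 and 0.153% in FL. It was 1.01, 2.55, 0.792 and 0.720% in NCTAD and 1.58, 3.78, 0.860 and 0.810% in cIDR. HIGD1A was 58.9 to 76.5 CPM throughout, with overlapping groups.

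Of the kinases, PDK1 (chr2:172555373-172724312) was highest with cIDR in every batch in CPM (in TPM, NCTAD was higher in batch 1). It was 3.70, 19.8, 2.73 and 3.76 CPM in WT batches 1 to 4, 3.59, 25.6, 3.42 and 3.17 CPM in FL, and 4.92, 25.6, 3.40 and 3.38 CPM in NCTAD. In cIDR it was 5.28, 38.8, 4.92 and 4.09 CPM. The step from WT to cIDR was small beside the step from the other batches to batch 2. Within batches cIDR exceeded WT by 0.61 ± 0.38 and FL by 0.51 ± 0.10 (log2 CPM, mean ± SD, n = 4), in 4 of 4 batches each. The blocked edgeR fit gave a rise of 0.64 ± 0.12 against WT (adjusted p = 0.028). Without batch 2 the value was 0.48 ± 0.16 and the call was lost (adjusted p = 1), and with group alone it was 0.83 ± 0.97 (adjusted p = 1). The call was also lost when the WT or the cIDR library of batch 1, 2 or 3 was left out by itself (adjusted p up to 0.23). cIDR against FL was 0.52 ± 0.12 (blocked, adjusted p = 0.37).

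PDK2 was 20.9 to 28.4 CPM in all 16 libraries and showed no step to batch 2. In CPM it was higher with NCTAD than in WT in 4 of 4 batches (3 of 4 in TPM), by 0.20 ± 0.18 (log2 CPM, mean ± SD). This did not pass the blocked edgeR test (0.20 ± 0.06, log2 ± SE, adjusted p = 0.46). The cIDR library exceeded WT in PDK2 in 3 of 4 batches in CPM but in 1 of 4 in TPM. PDK3 was 14.5 to 20.7 CPM outside batch 2, with overlapping groups. By TPM, PDK2 was the main kinase of the 3, with 78.8 to 84.7% of their sum outside batch 2. In the WT, FL, NCTAD and cIDR libraries of batch 2 it was 64.8, 63.7, 68.1 and 50.7%, and PDK1 made up 18.0, 19.96, 18.9 and 29.2% in the same libraries, against 2.79 to 7.45% elsewhere. These shares depend on the division by length. As shares of counts, PDK2 was 51.3 to 57.1% of the 3 outside batch 2 and 33.9, 31.8, 34.3 and 27.0% in it, where PDK3 had more counts than PDK2 in WT (37.3%), FL (35.5%) and cIDR (32.6%), and PDK1 had more in FL (32.7%) and cIDR (40.4%). PDK4, the starvation-inducible kinase, had 2 counts in 1 library and 0 in the other 15, and was not tested.

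The mitophagy receptors differed between cIDR and WT by less than the tests could call, and the direction within batches depended on the scale. BNIP3 (chr10:131967684-131981923) was 71.1, 191.3, 63.5 and 64.2 CPM in WT batches 1 to 4 and 73.4, 297.9, 71.3 and 73.5 CPM in cIDR. FL and NCTAD libraries were between 65.5 and 75.9 CPM outside batch 2 and at 211.1 and 220.6 CPM in it. BNIP3L was 32.0, 88.6, 32.2 and 32.8 CPM in WT and 36.9, 121.5, 38.9 and 34.2 CPM in cIDR. Its FL libraries, at 25.3, 96.9, 30.4 and 35.8 CPM, lay on both sides of WT. In CPM the cIDR library was above the WT library of its batch in 4 of 4 batches for both receptors. In TPM it was above in 3 of 4 for BNIP3, with 69.0 against 72.4 in batch 1, and in 2 of 4 for BNIP3L, with 19.7 against 22.9 in batch 1 and 19.2 against 19.3 in batch 4. The mean CPM difference was 0.26 ± 0.26 for BNIP3 and 0.25 ± 0.16 for BNIP3L (log2 CPM, SD, n = 4). Neither passed the blocked edgeR test, with 0.27 ± 0.08 (log2 ± SE, adjusted p = 0.29) and 0.25 ± 0.08 (adjusted p = 0.46). Most of the BNIP3 difference came from batch 2, where it was 0.64 against 0.05 to 0.20 in the other batches, and without batch 2 the blocked values were 0.13 for BNIP3 and 0.18 for BNIP3L (adjusted p = 1 for both). BNIP3 made up 74.3 to 82.2% of the TPM of the receptor pair in all libraries.

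Counted over the 10 genes, 0 were called at an adjusted p under 0.05 in any of the 6 comparisons of groups in the edgeR fit with group alone, where 0.0102% of all genes were called for FL, 0.0256% for NCTAD and 0.0102% for cIDR against WT. DESeq2 with group alone called 0 as well, and gave no p for NDUFA4L2 and PDK1 in any of the 6 comparisons. At an unadjusted p under 0.05 the edgeR count was 0 for FL, 1 for NCTAD and 2 for cIDR against WT, where 1.14%, 1.42% and 1.37% of all genes were under it. It was 0 for NCTAD against FL, cIDR against FL and cIDR against NCTAD, against 0.886%, 0.906% and 0.609% of all genes. With the replicate block, 0 were called for FL, 1 (COX4I2) for NCTAD and 3 (COX4I2, NDUFA4L2 and PDK1) for cIDR against WT, and of all genes 0.102%, 0.456% and 0.486%. At an unadjusted p under 0.05 the blocked fit had 1, 2 and 6 of the 10, against 5.11%, 5.96% and 5.45% of all genes, so the count of 1 in FL is near the background. Between the forms the blocked edgeR fit called 0 of the 10 genes for NCTAD against FL, cIDR against FL and cIDR against NCTAD, and 0.0%, 0.0307% and 0.00512% of all genes. In the same order 1, 5 and 3 of the 10 had an unadjusted p under 0.05, against 3.69%, 3.68% and 2.15% of all genes. DESeq2 with the block called the same numbers against WT, and between the forms it called 3 of the 10 in cIDR against FL (NDUFA4L2, COX4I2 and PDK1), where it called 0.236% of all genes.

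Direction was also counted within batches, in CPM. Higher than WT in 4 of 4 batches were 2 of the 10 genes in FL, 4 in NCTAD and 6 in cIDR, against 5.33%, 8.85% and 10.5% of all genes. The 6 in cIDR include NDUFA4, which was higher by only 0.008 to 0.047 (log2 CPM). Between the forms, 2 were higher in 4 of 4 batches in NCTAD than in FL, 4 in cIDR than in FL and 4 in cIDR than in NCTAD, against 6.02%, 4.87% and 4.36% of all genes. In TPM the counts were 2, 3 and 3 of the 10 against WT and 1, 3 and 3 between the forms. No share over all genes was computed in TPM, so these counts have no background. Against WT in cIDR those that did not keep 4 of 4 were NDUFA4, BNIP3 and BNIP3L. Outside batch 2, NDUFA4L2 and COX4I2 were above all WT libraries in FL and in NCTAD, where 3.39% and 5.15% of all genes were. For COX4I2 in FL the gap was slight, at 0.359 against 0.355 CPM. PDK1, BNIP3 and BNIP3L joined NDUFA4L2 and COX4I2 in cIDR, where 5.63% of all genes were. In TPM, BNIP3 and BNIP3L overlapped WT in cIDR and the other 3 did not. EPAS1 itself was 2609 ± 906 CPM in FL, 2851 ± 1330 CPM in NCTAD and 4484 ± 1740 CPM in cIDR (SD, n = 4), and its part in the differences between forms was not tested. Of the 8 neuroblastoma markers, the blocked edgeR fit called 0 in FL and 2 in NCTAD and in cIDR against WT, both higher, and 3 had an unadjusted p under 0.05 in FL, where DESeq2 with the block called 2. TH rose by 1.27 ± 0.17 and 1.06 ± 0.17 (log2 ± SE, adjusted p = 0.0022 and 0.0095), and DBH by 0.61 ± 0.07 and 0.51 ± 0.07 (adjusted p = 0.00035 and 0.0013). Without batch 2 these calls held except that of TH in cIDR (adjusted p = 0.099). Markers of other cell types had a median difference of 0.39 in FL, 0.81 in NCTAD and 0.40 in cIDR over the 3 tested, with 0, 1 and 1 at an unadjusted p under 0.05 and 0 called by edgeR, while DESeq2 with the block called 1 in NCTAD. The part of these markers in the differences of the 10 genes was not tested. The comparisons with WT share the same 4 WT libraries.

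Other genes of these pathways, from lists that leave out the 10 genes, are given for context. Of 10 tested genes of the pyruvate dehydrogenase complex, its phosphatases and the pyruvate carrier, 0 were called against WT in any group, with or without the block, by edgeR or DESeq2, and 0 had an unadjusted p under 0.05. Of 17 tested genes (subunits and assembly factors of cytochrome c oxidase, HIGD family genes and the protease LONP1), 0 were called by either tool. At an unadjusted p under 0.05 in the blocked edgeR fit were 3 in FL, 1 in NCTAD and 0 in cIDR. Of these, HIGD1C differed by −0.32 ± 0.12 in NCTAD (log2 ± SE, adjusted p = 0.62). COX7A1 and HIGD1B had 0 counts in all 16 libraries.

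Of 23 other mitophagy genes, 0 were called against WT by edgeR or DESeq2, and 2 had an unadjusted p under 0.05 in cIDR in the blocked edgeR fit. The values of smallest p were those of BCL2, which binds and restrains mitophagy and cell death proteins (−0.19 ± 0.08 in cIDR, adjusted p = 0.82), and of the autophagosome gene MAP1LC3A (0.24 ± 0.10, adjusted p = 0.84). Of 14 genes of mitochondrial biogenesis and dynamics, 0 were called by either tool, with 1 at an unadjusted p under 0.05 in FL and 1 in cIDR in the blocked edgeR fit. PPARGC1A, the master coactivator of biogenesis, differed by −0.20 ± 0.08 in FL (adjusted p = 0.92).

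Of 22 other hypoxia-inducible genes, several rose once the batch was in the model. Against WT, the blocked edgeR fit called 1 higher with FL, 8 with NCTAD and 10 with cIDR and 0 lower, while with group alone none was called by edgeR, with 3, 4 and 4 at an unadjusted p under 0.05, and DESeq2 called 0, 1 and 2. DESeq2 with the block called 5, 9 and 13 higher, and the blocked edgeR fit without batch 2 called 2, 7 and 5. In the same order their median log2 differences were 0.16, 0.27 and 0.49, and those of all genes 0.011, 0.016 and 0.008 (blocked edgeR fit with batch 2). BHLHE40, a transcriptional repressor of the clock and hypoxia responses, rose by 1.11 ± 0.08 in cIDR (edgeR, adjusted p = 5.8e-06). NDRG1 rose by 2.49 ± 0.34 (adjusted p = 0.0018). PFKFB4, which makes an activator of glycolysis, rose by 0.67 ± 0.07 (adjusted p = 0.00031), near the value of PDK1.

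Batch 2 differed from the other batches in 6 of the 10 genes, all higher, in the edgeR fit with group and batch. In this contrast 53.9% of all tested genes were called, 27.7% higher and 26.1% lower. NDUFA4L2 was higher by 5.51 ± 0.33 (log2 ± SE, adjusted p = 5.8e-09), PDK1 by 2.81 ± 0.08 (adjusted p = 4.7e-12) and COX4I2 by 2.39 ± 0.25 (adjusted p = 1.7e-06). BNIP3 was higher by 1.73 ± 0.06 (adjusted p = 1.2e-11), BNIP3L by 1.62 ± 0.06 (adjusted p = 3.7e-11) and PDK3 by 0.75 ± 0.08 (adjusted p = 1.3e-06). The other 4 genes differed by 0.13 or less on this scale: COX4I1 by −0.13 ± 0.05 (adjusted p = 0.057), NDUFA4 by −0.08 ± 0.05 (adjusted p = 0.15), HIGD1A by 0.06 ± 0.05 (adjusted p = 0.32) and PDK2 by 0.02 ± 0.05 (adjusted p = 0.75). The 4 libraries of batch 2 share 1 labelled batch, and it was singled out with earlier results known, so these values describe the libraries and not a condition. The median difference was 1.18 over the 10 genes and 0.035 over all genes.

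All 4 batch 2 libraries lay above the other 12 for PDK1, PDK3, NDUFA4L2, BNIP3 and BNIP3L, as they did for 14.4% of all tested genes. PDK1 was 19.8 to 38.8 CPM in batch 2 and 2.73 to 5.28 CPM elsewhere. BNIP3 was 191.3 to 297.9 CPM in batch 2 and 63.5 to 75.9 CPM elsewhere. PDK3 was 25.6 to 31.4 CPM in batch 2 and at most 20.7 CPM elsewhere. The WT library shared the shift, at 63.4 CPM of NDUFA4L2 where the WT libraries of the other batches had 0.549 CPM or less. COX4I2 was the called gene whose ranges overlapped, with 3.05 CPM in the WT library of batch 2 and 4.17 CPM in the cIDR library of batch 1.

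EPAS1 in batch 2 differed in direction by group, and in FL the batch 2 library lay within the range of the others. Its batch 2 level was 1.89 times the mean of the other batches in WT, and 0.712, 0.393 and 0.417 times that mean in FL, NCTAD and cIDR. The fitted contrast averages these groups and was not called, at −0.45 ± 0.26 (log2 ± SE, edgeR, adjusted p = 0.17). Of the other hypoxia-inducible genes, 20 of 22 were called higher in batch 2 and 0 lower, with NDRG1 at 3.27 ± 0.23 and the microRNA host gene MIR210HG at 3.06 ± 0.25. Of 23 mitophagy genes 10 were higher and 5 lower, among them GABARAPL1, which marks autophagosomes (1.04 ± 0.06), a count to be read against the 53.9% of all genes called. Of 10 pyruvate dehydrogenase genes 0 were higher and 6 lower, PDHX by −0.36 ± 0.04 and PDHB by −0.24 ± 0.04, both parts of the complex itself. Of the 17 genes listed with cytochrome c oxidase 2 were higher and 2 lower, with LONP1, a protease of the mitochondrial matrix, at 0.32 ± 0.04. Of 14 biogenesis and dynamics genes 1 was higher, the MYC antagonist MXI1 (0.62 ± 0.07), and 8 lower, with MYC at −3.13 ± 0.30 from a level of at most 2.55 CPM.

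Markers of cell types also moved with batch 2. Of the 8 neuroblastoma markers 4 were called higher and 2 lower, among them TH at 2.15 ± 0.12 and GATA3 at −0.80 ± 0.05 (log2 ± SE). Of other cell types, summed CPM of PTPRC, EPCAM, KRT5, PECAM1, CDH5, COL1A1, ALB and HBB was 5.85 to 7.37 in batch 2 and 1.98 to 3.52 elsewhere, mostly from COL1A1, and the part of both lists in the batch 2 difference was not tested. Of the 8, 3 passed the filter and 2 of these were called higher in batch 2. KRT5 and HBB were at 0 counts in all 16 libraries and PTPRC in 12.

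For PDK1, NDUFA4L2, BNIP3 and BNIP3L, the genes of most similar pattern over the 16 libraries were found by the root-mean-square (RMS) difference of centred log2 CPM among 12365 genes. For PDK1 they were DDIT4 (0.210), UPB1 (0.290) and PFKFB4 (0.303), where PDK1 itself varied by an RMS of 1.25 about its mean. BNIP3 was nearest to EML2 (0.143), ADGRA2 (0.151) and PFKFB3 (0.164), and BNIP3L to SH3PXD2B (0.153), PFKFB3 (0.169) and ADGRA2 (0.170). NDUFA4L2 had no close match, with NXPH4 at 1.04, NDRG1 at 1.41 and CABP7 at 1.52 against its own RMS of 2.96. These likenesses carry the shared step to batch 2, where DDIT4 differed by 2.85 and NXPH4 by 4.67 on the log2 scale.

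Estimated counts were within 0.01 of a whole number in all 16 libraries for 6 of the 10 genes, but in 12 for COX4I1, 1 each for NDUFA4 and BNIP3 and 0 for HIGD1A, so levels of these 4 genes are uncertain to the extent that salmon divided reads among similar sequences. In GENCODE 29, exons of PDK1, PDK2, NDUFA4L2, COX4I1 and BNIP3L overlap exons of a gene on the opposite strand, 445 bases with AC078883.1 for PDK1 and 2113 bases with SAMD14 for PDK2. Exons of HIGD1A overlap those of AC006059.2 and AC099329.1 on its own strand. The strand setting of the counting is not given in the sources used here.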

How the data were processed

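Per the labels, RNA (250 ng) went through a stranded poly(A) kit and 13 cycles of PCR. The authors deposited salmon estimated counts per gene and TPM values, which sum to the same total in every library. The submitters' processing notes name fastp, STAR, Salmon, featureCounts and GRCh38; versions, roles and the annotation release are not given in the sources used here. Groups follow the labels; the tables' columns name the line BE2c and write FL as WT, WT as CTRL and NCTAD as NTAD. Estimated counts, 9.22% of them over 0.01 from a whole number, were rounded. edgeR 4.0.16 in R 4.3.3 (TMM, filterByExpr by group, quasi-likelihood test) was fitted over all 16 libraries with group alone, and a call is a Benjamini-Hochberg adjusted p under 0.05. SE is the log2 difference over the square root of F.

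The labels give the batch by replicate number, which pairs the libraries. Deviations from group means correlated at a mean r of 0.308 within batches (0.0674 to 0.712) and −0.0945 between them. Deviations are centred within each group, so the value between batches is tied to that within them and adds no separate evidence. The blocked fit adds the batch and also gives the batch 2 contrast, batch 2 minus the mean of the other batches. Alternatives were DESeq2 1.42.0, limma 3.58.1 on log2 TPM, other scaling and filters, and libraries or batch 2 left out. DESeq2 with the block, lists without batch 2, and directions in TPM, were added after seeing the data. Named genes are the 10 members, EPAS1, for each list the 2 genes of smallest p against WT (blocked) and the 2 of largest batch 2 difference, and the 3 nearest patterns; some of these are not reported here. Members and lists were chosen with earlier results of these data known.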

Additional observations from a re-analysis of the deposited data

Results flagged for a closer look

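In each group of 4 libraries, the gap between the highest or lowest library and its nearest neighbour was compared with the whole range of the group (Dixon's test at its 95% critical value). Of 40 sets of 1 gene in 1 group, 19 held such an outlier, where about 1 in 20 is expected by chance, and in all 19 it was the batch 2 library, as the highest. Over all tested genes 9.49% of such sets held an outlier, and in 4.88% it was the batch 2 library as the highest, against 47.5% of the sets here. The 4 libraries of that batch are not independent of each other, and the genes move together, so the 19 are not 19 separate observations. In the order WT, FL, NCTAD and cIDR the outlying levels were 19.8, 25.6, 25.6 and 38.8 CPM for PDK1, 63.4, 75.8, 75.5 and 142.7 CPM for NDUFA4L2, 191.3, 211.1, 220.6 and 297.9 CPM for BNIP3, and 88.6, 96.9, 100.1 and 121.5 CPM for BNIP3L. The others were PDK3 in NCTAD (26.3 CPM) and cIDR (31.4 CPM) and COX4I2 in WT (3.05 CPM). The labels give batch 2 no condition of its own, and what sets it apart was not tested.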

How the results depend on the processing

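The comparisons of groups depend on how the batch is treated. With the batch as a replicate block, edgeR called 1 of the 10 genes for NCTAD and 3 for cIDR against WT, where group alone called 0. DESeq2 with the block called 1 and 3, and 3 in cIDR against FL. Leaving out batch 2, with or without the block, gave 1 for NCTAD and 2 for cIDR against WT and 1 for cIDR against FL. With 1 library left out, group alone called 0 of the 10 in every comparison, and the block called 0 to 1 for NCTAD and 2 to 3 for cIDR against WT, 0 to 1 for cIDR against FL and 0 to 1 for cIDR against NCTAD. Over all genes group alone then called 2, 2 to 4 and 2 for FL, NCTAD and cIDR against WT, and the block 10 to 23, 43 to 83 and 49 to 72. Between the forms group alone then called 0 of all genes. The block called 0 to 5 for NCTAD against FL, 0 to 8 for cIDR against FL and 0 to 2 for cIDR against NCTAD. Over all genes, in the order FL, NCTAD and cIDR against WT, NCTAD against FL, cIDR against FL and cIDR against NCTAD, group alone called 2, 5, 2, 0, 0 and 0, the block 20, 89, 95, 0, 6 and 1, DESeq2 11, 17, 8, 2, 0 and 3, DESeq2 with the block 58, 168, 156, 12, 46 and 21, batch 2 left out 10, 39, 33, 0, 5 and 0, and both 16, 62, 46, 5, 10 and 0. At least 10 counts in every library gave 1, 3 and 1 against WT and removed NDUFA4L2 and COX4I2 from the test. limma gave 3, 1 and 2 on log2(TPM + 1) and 2, 2 and 2 on log2(TPM + 0.1).

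With the block, leaving out single libraries kept the calls of NDUFA4L2 (adjusted p 0.00021 to 0.04998) and COX4I2 (0.00028 to 0.017) in cIDR. PDK1 in cIDR lost its call without any of the 3 WT libraries of batches 1, 2 and 3 or the 3 cIDR libraries of those batches, up to an adjusted p of 0.23. With group alone, several values turned with 1 library left out, and leaving out the batch 2 library of the first-named group gave the lowest value each time. Their ranges were, for NDUFA4L2, −4.15 to 5.65 (FL), −3.18 to 5.69 (NCTAD) and −0.52 to 6.82 (cIDR) against WT, −3.46 to 4.46 for NCTAD against FL, −0.79 to 5.59 for cIDR against FL and −0.83 to 4.63 for cIDR against NCTAD. For PDK1 they were −1.14 to 1.40, −0.95 to 1.46, −0.66 to 1.97, −1.20 to 1.45, −0.91 to 1.97 and −0.97 to 1.77 in the same order. For COX4I2 they were −0.13 to 3.07 (FL against WT) and −0.10 to 1.09 (cIDR against NCTAD), and for cIDR against WT −0.42 to 0.96 (BNIP3) and −0.34 to 0.84 (BNIP3L). With the block the only turn in these comparisons was NDUFA4L2 in FL (−0.23 to 1.98). PDK1 in FL was −0.029 without batch 2, and −0.023 with the block as well.

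In the batch 2 contrast the 6 calls held in each alternative that tested the gene. Values near 0 turned: PDK2 to −0.0063 against batch 3 alone and −0.0047 to 0.045 with 1 library left out, HIGD1A to −0.014 against batch 1 alone, and NDUFA4 to 0.014 against batch 3 alone, 0.0842 on log2(TPM + 1) and 0.0844 on log2(TPM + 0.1). COX4I1 was called lower with median-of-ratios factors (−0.14, adjusted p = 0.035) and DESeq2 (adjusted p = 0.019), against batch 1 alone (−0.27) and with some single libraries left out (adjusted p down to 0.0196), and NDUFA4 was called lower against batch 1 alone (−0.17). As a share of counts in place of TPM, in WT, FL, NCTAD and cIDR, PDK2 was 48.8, 49.1, 50.8 and 48.1% of the 3 kinases (78.8, 79.0, 79.2 and 73.5% by TPM), PDK3 was 37.9, 37.1, 34.9 and 34.2% (13.9, 13.4, 12.4 and 14.9%) and PDK1 was 13.3, 13.8, 14.35 and 17.7% (7.30, 7.59, 8.37 and 11.6%). Outside batch 2 in WT the PDK1 share was 8.10% by counts and 3.74% by TPM. BNIP3 was 67.5, 68.6, 68.3 and 67.6% of its pair in WT, FL, NCTAD and cIDR, where its mean TPM share was 76.5, 76.99, 78.1 and 77.5%. The cause of these changes was not tested. Counting depth limits NDUFA4L2 and COX4I2 in WT, where 3 counts come to 0.0559 to 0.0724 CPM.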
